A study of Mus musculus with 36 samples.

Results

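Genes of the inflammatory cytokines interleukin-1, interleukin-18 and tumour necrosis factor, of the NLRP3 inflammasome and of a pair of cytokine receptors were followed in mouse hippocampus. They are the 9 rows of the deposited gene table, of 36172, whose symbol is Il1a, Il1b, Tnf, Il18, Casp1, Nlrp3, Pycard, Il10ra or Il6ra, and all 9 were found. All mice carried the Cx3cr1-NuTRAP genotype, in which tamoxifen activates a cre recombinase driven by the Cx3cr1 promoter, active in microglia and some other macrophages, and recombined cells then tag their ribosomes. RNA on those ribosomes can then be pulled down by an antibody (translating ribosome affinity purification, TRAP), while input is RNA of the whole tissue set aside before the pulldown. The 36 polyA libraries came from 29 animals: inputs of 10 young animals with early induction of cre (5 females, 5 males), of 12 old animals with early induction (7 females, 5 males) and of 7 old animals with late induction (5 females, 2 males), and TRAP libraries of those same 7 old late-induced animals. Young animals were 6 months and old animals 22 months of age per the labels, and the ages at induction are not given in the sources used here. Young animals had early induction in every case, so in the comparison of old late-induced with young inputs age and induction age change together, and TRAP levels in young or early-induced animals were not analysed here.

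Interleukin-1 alpha, interleukin-1 beta, interleukin-18 and tumour necrosis factor are secreted signals that start and spread inflammation. Interleukin-1 beta and interleukin-18 are made as inactive precursors. In the inflammasome, the sensor NLRP3 recruits the adaptor encoded by Pycard (also called ASC), which brings in caspase-1, and caspase-1 cuts both precursors. In the brain, microglia are a main source of interleukin-1 and of the inflammasome proteins, and they receive the restraining signal of interleukin-10 through its receptor.

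Libraries summed to 12.9M to 20.4M estimated counts. Levels are given as CPM, the usual count per library size, with library sizes scaled by the trimmed mean of M-values (TMM), and a gene was called where the Benjamini-Hochberg adjusted p of edgeR's quasi-likelihood test, over all genes tested, was under 0.05. The 12 microglia markers summed to 397 to 454 CPM in young, 503 to 608 CPM in old early-induced and 537 to 745 CPM in old late-induced inputs, and to 9591 to 14604 CPM in TRAP libraries, where all 12 were called higher than in input. All 8 border macrophage markers were also called higher in TRAP (median log2 fold change 3.83), as were 8 of 8 endothelial markers (median 1.15), and their part in the TRAP levels of the members was not tested. Of the 8 neutrophil markers, which mark blood cells that can carry Il1b, 7 were at a median of 3 counts or fewer in TRAP, and Camp was at 0 in all 7 TRAP libraries. The 1 neutrophil marker tested in TRAP against input was called higher (log2 fold change 3.75). The list summed to 83.0 to 190 CPM in TRAP, against 8.3 to 14.3 CPM in old late-induced inputs. With 7 markers at such low counts, the TRAP sum rests mainly on the 1 tested marker and does not describe the list. All 4 matched hemoglobin and related blood genes were called lower in TRAP (median log2 fold change -2.32). The labels give each set of animals its own range of sample index (1 to 23 for old early-induced, 25 to 38 for old late-induced, 39 to 57 for young animals), so group and index cannot be told apart. The labels name separate animals within a group, and p-values of the input comparisons measure the spread between them. The main fit of TRAP against input took both libraries of an animal as independent, and a fit with animal as a block is given below.

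The letters just upstream of the transcription start are shown for Nlrp3, Pycard and Il1a, chosen because they hold a core motif of the factor PU.1, and for Il18 as a member without it. RefSeq (GRCm38.p6) gave a promoter for 8 of the 9 members, with none listed for Il10ra. PU.1 belongs to the myeloid lineage, and its core GAGGAAG was searched on both strands from 250 bases before to 50 bases after each start. It was found for 4 of 8 members (Il1a, Pycard, Nlrp3 and Tnf), and 13.6% of 32851 promoters of that length hold it. The windows of Il1b, Casp1 and Il6ra, which were called higher in TRAP as Il1a, Pycard and Nlrp3 were, do not hold it. The 250 bases before the start are printed, 5′ to 3′ on the gene's strand, with the core in capitals (CTTCCTC where it lies on the other strand). For Nlrp3, from the 59542686 start that the deposited gene model also uses, they are chr11:59542436-59542685 on the plus strand, with matches beginning 130 and 36 bases before the start. For Pycard they are chr7:127993868-127994117 on the minus strand, with a match 43 bases before the start.
Nlrp3: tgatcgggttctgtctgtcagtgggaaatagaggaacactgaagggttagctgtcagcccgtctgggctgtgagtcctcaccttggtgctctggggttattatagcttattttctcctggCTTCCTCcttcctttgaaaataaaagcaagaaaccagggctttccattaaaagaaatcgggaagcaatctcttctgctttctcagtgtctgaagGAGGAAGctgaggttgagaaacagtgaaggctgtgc
Pycard: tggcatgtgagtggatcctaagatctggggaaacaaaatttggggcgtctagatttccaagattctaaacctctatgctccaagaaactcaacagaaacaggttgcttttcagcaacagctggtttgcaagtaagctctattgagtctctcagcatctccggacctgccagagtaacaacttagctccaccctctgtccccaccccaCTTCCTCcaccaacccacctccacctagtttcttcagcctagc
Il1a: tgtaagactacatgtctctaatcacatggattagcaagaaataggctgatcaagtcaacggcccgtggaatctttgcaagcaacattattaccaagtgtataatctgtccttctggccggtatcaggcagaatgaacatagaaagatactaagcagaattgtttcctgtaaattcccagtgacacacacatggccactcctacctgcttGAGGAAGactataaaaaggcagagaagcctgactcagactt
Il18: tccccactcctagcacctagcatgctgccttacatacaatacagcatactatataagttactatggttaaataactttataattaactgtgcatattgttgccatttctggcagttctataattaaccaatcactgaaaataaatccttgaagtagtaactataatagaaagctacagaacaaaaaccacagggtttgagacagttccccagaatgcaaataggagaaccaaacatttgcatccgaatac
The Il1a stretch is chr2:129309973-129310222 on the minus strand, with a match 41 bases before the start. The Il18 stretch is chr9:50554450-50554699 on the plus strand and holds no capitals, since these letters are not in that window. The deposited Il18 model starts 10.7 kb downstream of this RefSeq start. An NF-kB consensus was found for 1 of 8 members, at 186 bases before the other Nlrp3 start, and is held by 8.46% of all promoters. The ISRE core GAAANNGAAA, a motif of interferon response, was found for 0 of 8 members and is held by 3.44% of all promoters. These matches are letters only, and binding was not measured.

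In the pulldown 7 of the 8 members tested were called higher, and Il18 was the tested member that was not called. Il1a, Il1b, Nlrp3, Pycard, Casp1, Il10ra and Il6ra rose in old late-induced TRAP against input by log2 fold changes from 1.96 (Casp1) to 4.05 (Pycard), with a median over the 8 tested members of 3.49. Over all 14596 genes tested, 59.2% were called, 30.4% higher and 28.8% lower, and the median log2 fold change was -0.02. The 12 microglia markers had a median of 4.28 (range 2.93 to 4.41). Upper quartile scaling moved the median of all genes to -0.16 and the calls from 4442 higher of 8640 to 3280 higher of 9652. All 8 tested members kept a positive value under each scaling. Il1b passed the filter on low counts through its TRAP libraries, so its place among the tested members already rests on its being higher there.

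**Figure D1:**
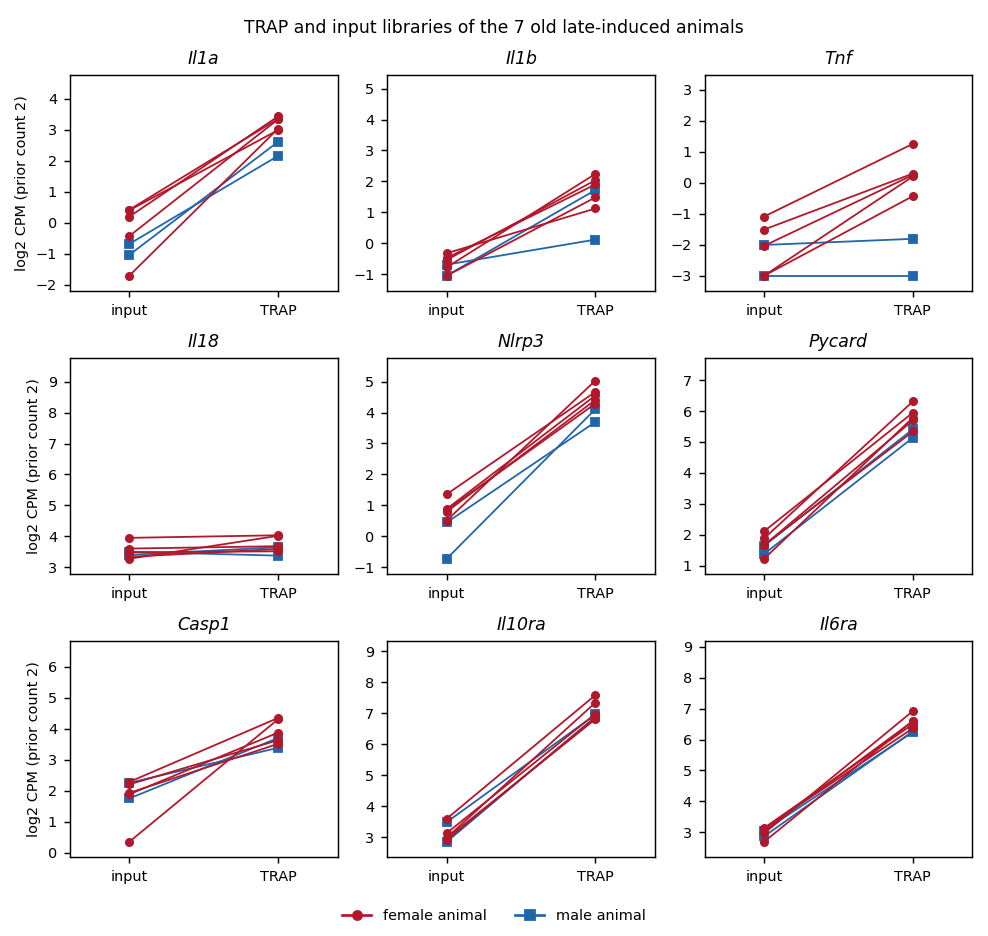
Level of each member (log2 CPM with a prior count of 2, each vertical axis spanning 7 units) in the input and the TRAP library of each of the 7 old late-induced animals, joined by a line per animal (red circles, females; blue squares, males). Lines rise for all 7 animals in Il1a, Il1b, Nlrp3, Pycard, Casp1, Il10ra and Il6ra and lie nearly flat in Il18.

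Il1a (gene ID 16175, chr2:129299610-129309972, minus strand), which encodes interleukin-1 alpha, ran from 0.18 through a median of 0.615 to 1.21 CPM in old late-induced inputs and from 4.33 through 8.08 to 10.7 CPM in TRAP. All 7 TRAP libraries lay above every input, and the counts behind them were 53.6 to 174, against 2.91 to 20.7 in input. The log2 fold change was 3.46 ± 0.25 (SE; adjusted p = 3.13e-09 by edgeR's quasi-likelihood test). Its neighbour Il1b (16176, chr2:129364580-129371120, minus strand), which encodes interleukin-1 beta, ran from 0.359 through 0.496 to 0.676 CPM in input and from 0.963 through 3.18 to 4.62 CPM in TRAP. The 7 TRAP libraries again stood above all inputs, on 12 to 64.9 counts, and the lowest was male replicate 2. The log2 fold change was 2.54 ± 0.29 (adjusted p = 9.39e-07, same test). Both genes overlap noncoding genes on the plus strand, Gm14023 at Il1a (median 4.87 counts) and Gm14047 at Il1b (median 2 counts). Strand handling is not given in the sources used here, so low counts of either pair cannot be assigned with certainty.

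Tnf (21926, chr17:35199391-35201996, minus strand), the gene of tumour necrosis factor, stood near the detection floor and did not pass the filter on low counts. Old late-induced inputs held 14 Tnf counts in all, with 3 of 7 libraries at 0, and the 7 TRAP libraries held 93. Per library, TRAP levels were 0 and 0.16 CPM in the 2 males and 0.617 to 2.27 CPM in the 5 females, against 0 to 0.345 CPM in input. Relative to the summed library sizes, the pooled TRAP rate was 7.42 times that of input (95% exact interval 4.21 to 14.1, counting error only). TRAP CPM was higher than input CPM in 6 of the 7 animals, 1 of them male replicate 2, with 2 counts in each library. Male replicate 1 held 0 counts in both. Whole values from 1 to 20 in the table were even in 66.8% of cases, so counts are not independent and this interval is too narrow.

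Il18 (16173, chr9:50565368-50581837, plus strand), which encodes interleukin-18, ran from 9.56 through 11.1 to 15.4 CPM in input and from 10.3 through 12.4 to 16.3 CPM in TRAP. The groups overlapped, with 2 of 7 TRAP libraries above the highest input. Within animals the TRAP level was 0.916 to 1.68 times that of input (median 1.06), higher in 6 of 7. The log2 fold change was 0.17 ± 0.12 (adjusted p = 0.253), and 0.02 to 0.15 under the other scalings. The gene held 128 to 262 counts per TRAP library.

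The inflammasome sensor Nlrp3 (216799, chr11:59542686-59566956, plus strand) ran from 0.48 through 1.61 to 2.44 CPM in input and from 12.8 through 21.1 to 32.7 CPM in TRAP. The log2 fold change was 3.85 ± 0.18 (adjusted p = 9.44e-12), and the ratio within animals was 10.4 to 35.8. The highest ratio belonged to male replicate 1, whose input held 8 counts.

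The adaptor gene Pycard (66824, chr7:127991373-127993867, minus strand) ran from 2.21 through 3.04 to 4.2 CPM in input and from 35.1 through 51.7 to 79.3 CPM in TRAP. Its log2 fold change of 4.05 ± 0.16 (adjusted p = 9.84e-13) had the largest size among the 8 tested members, and the ratio within animals was 13.2 to 24.8. In both genes all 7 TRAP libraries lay far above all 7 inputs.

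Casp1 (12362, chr9:5298517-5307281, plus strand), which encodes caspase-1, ran from 1.15 through 3.69 to 4.75 CPM in input and from 10.4 through 12.9 to 20.3 CPM in TRAP. No TRAP library overlapped the inputs, and 6 of the 7 animals had ratios of 2.23 to 4.27, while female replicate 5, whose input was the lowest at 20 counts, had 17.1. The log2 fold change was 1.96 ± 0.24 (adjusted p = 2.2e-06), and 1.70 to 2.10 with any 1 animal left out.

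Of the receptors, Il10ra (16154, chr9:45253839-45269146, minus strand), the ligand-binding chain for interleukin-10, ran from 7.07 through 7.76 to 11.9 CPM in input and from 112 through 125 to 193 CPM in TRAP. The log2 fold change was 3.93 ± 0.15 (adjusted p = 7.1e-13), and the ratio within animals was 11.3 to 20.95. Il6ra (16194, chr3:89869324-89913162, minus strand), the ligand-binding chain for interleukin-6, ran from 6.35 through 8.16 to 8.7 CPM in input and from 75.4 through 90.2 to 121 CPM in TRAP. Its log2 fold change was 3.52 ± 0.10 (adjusted p = 1.33e-14), and all TRAP libraries of both receptor genes lay above all inputs.

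Other genes of these pathways were counted in lists chosen by function. Of 16 listed inflammasome genes 12 were tested, and these rose in TRAP, led by Naip2, a sensor of bacterial proteins (4.23 ± 0.21), and Casp4, the caspase of the noncanonical pathway (3.99 ± 0.27). The 13 tested TNF pathway genes gave 12 higher and 0 lower calls, with the receptor gene Tnfrsf1b at 3.95 ± 0.14. Of 13 tested genes of the IL-1 and IL-18 pathways 8 rose and 2 fell. There Il1rn, the interleukin-1 receptor antagonist, rose by 4.20 ± 0.39, and Il33, an alarmin of the same family, fell by 1.05 ± 0.17 on the log2 scale. The chemokine list gave 10 higher calls of 11 tested, with Ccl12 at 4.90 ± 0.30 and Ccl6 at 4.66 ± 0.25, and 1 lower call, Cx3cl1, the ligand of CX3CR1 (-0.20 ± 0.08). Of 15 NF-kB genes 13 rose, with Nfkb2 at 2.69 ± 0.15, and Nfkbiz fell by 0.38 ± 0.15. In the IL-6 and IL-10 list 8 of 10 tested genes rose, with the second interleukin-10 receptor chain Il10rb at 3.03 ± 0.15. Over all genes 30.4% were called higher. Casp4, Cd40, Il1rn, Ccl2, Ccl4, Ccl5 and Ccl12 did not pass the filter on low counts in the inputs alone, and all 7 were called higher, so their place among the tested genes already rests on their TRAP levels. Of the genes that passed it in inputs as well, 11 of 11 inflammasome, 11 of 12 TNF pathway, 7 of 12 IL-1 and IL-18 and 6 of 7 chemokine genes were called higher.

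With age, Il10ra rose in both groups of old inputs, and Pycard and Casp1 rose in old late-induced inputs. In old early-induced against young inputs 1 of the 7 tested members was called (Il10ra, higher), where 25.6% of all 14948 genes tested were called and 13% called higher, a share near that of the members. In old late-induced against young inputs 3 of 7 were called, all higher, where 34.5% of all genes were called and 17% called higher. Median log2 fold changes over the 7 tested members were 0.34 and 0.76, against 0.01 for all genes in each comparison. Both comparisons share the 10 young inputs and are not independent. The 12 microglia markers had medians of 0.34 and 0.44, with 11 and 12 of them called higher. Oligodendrocyte markers also rose (7 and 8 of 8 called higher, medians 0.34 and 0.55), and 4 of 8 astrocyte markers were called higher in each comparison. In bulk tissue fewer or more cells of a type and less or more RNA per cell cannot be told apart. Hemoglobin and related blood genes, 4 matched, summed to 141 to 345 CPM in young, 131 to 2265 CPM in old early-induced and 273 to 722 CPM in old late-induced inputs; their part in the results was not tested.

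**Figure D2:**
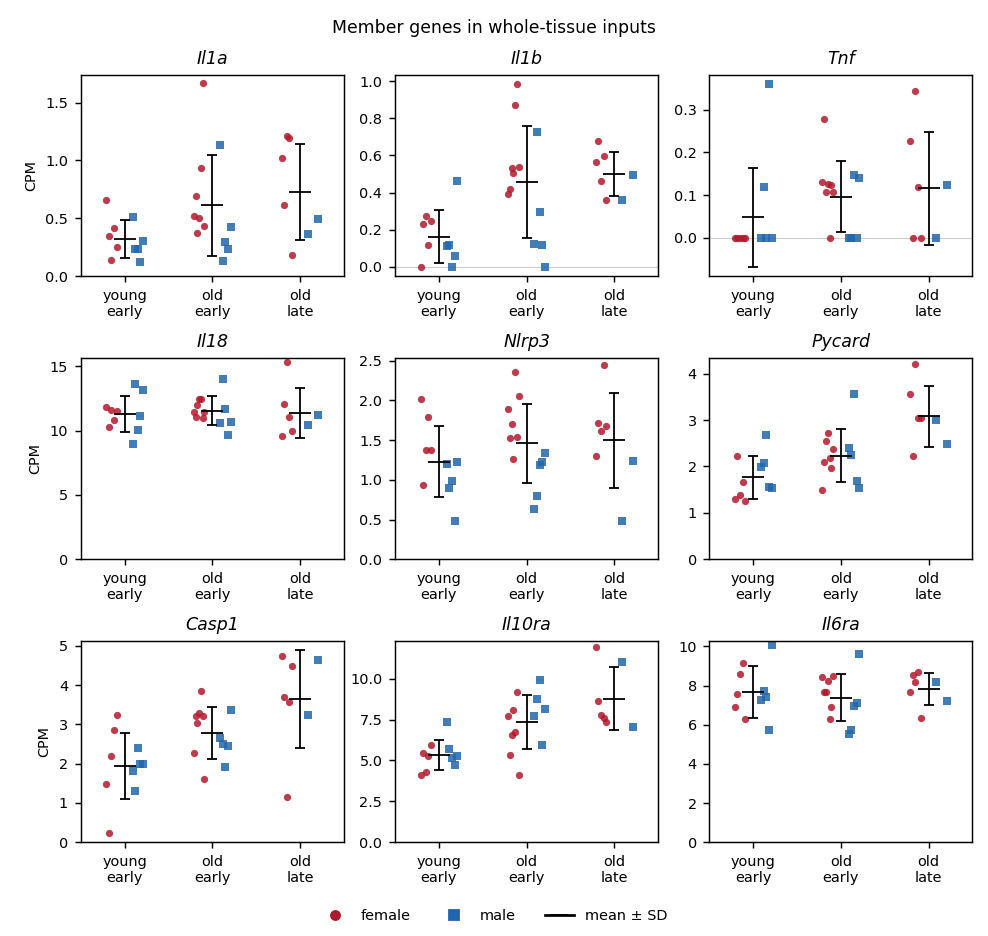
CPM of each member in every input library by group (red circles, females; blue squares, males; black bars, mean ± SD). Il10ra, Pycard and Casp1 step up from young to old late-induced inputs, whereas Il18 and Il6ra overlap across the 3 groups and Tnf lies at or near 0.

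Il10ra ran from 4.1 through 5.3 to 7.34 CPM in young, from 4.11 through 7.71 to 9.93 CPM in old early-induced and from 7.07 through 7.76 to 11.9 CPM in old late-induced inputs. The ranges overlapped, with 7 of 12 old early-induced and 6 of 7 old late-induced libraries above the highest young one. The log2 fold changes against young were 0.48 ± 0.13 (adjusted p = 0.00541) and 0.76 ± 0.14 (adjusted p = 0.00014) by edgeR's quasi-likelihood test. In females alone the early-induced value was 0.44 and was not called (adjusted p = 0.14).

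Pycard ran from 1.25 through 1.62 to 2.68 CPM in young, from 1.5 through 2.21 to 3.56 CPM in old early-induced and from 2.21 through 3.04 to 4.2 CPM in old late-induced inputs. In the old late-induced group 5 of 7 libraries exceeded every young one, and all 7 exceeded the young median. The log2 fold changes were 0.34 ± 0.16 (adjusted p = 0.108) and 0.81 ± 0.18 (adjusted p = 0.0007).

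Casp1 ran from 0.234 through 1.99 to 3.25 CPM in young, from 1.62 through 2.83 to 3.86 CPM in old early-induced and from 1.15 through 3.69 to 4.75 CPM in old late-induced inputs. The old late-induced libraries split, with 5 of 7 above the highest young library and female replicate 5 below the young median, while young female replicate 6 held 4 counts. The log2 fold changes were 0.51 ± 0.24 (adjusted p = 0.124) and 0.89 ± 0.27 (adjusted p = 0.0114). In females alone the late-induced call was lost (0.82, adjusted p = 0.171).

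Il1a, Il1b and Tnf held few counts in input. Il1a ran from 0.12 through 0.278 to 0.654 CPM in young, from 0.132 through 0.469 to 1.66 CPM in old early-induced and from 0.18 through 0.615 to 1.21 CPM in old late-induced inputs, with 2.5 and 2.91 counts in the lowest library of each old group. Both old groups overlapped the young, with 4 of 12 and 3 of 7 libraries above its highest. The log2 fold changes of 0.83 ± 0.37 (adjusted p = 0.0958) and 0.98 ± 0.41 (adjusted p = 0.0606) were not called. The late-induced value was called without old late-induced replicate 7 (adjusted p = 0.0223), young replicate 1 (0.0376) or 5 (0.0417), or old early-induced replicate 2 (0.0497) or 11 (0.04), each left out singly, and without the sex term (1.14, adjusted p = 0.0347).

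Il1b did not pass the filter on low counts in inputs. It ran from 0 through 0.119 to 0.461 CPM in young, from 0 through 0.461 to 0.986 CPM in old early-induced and from 0.359 through 0.496 to 0.676 CPM in old late-induced inputs. Young libraries held 25 counts in all, old early-induced 89 and old late-induced 59, and 6 of 12 and 4 of 7 old libraries exceeded the highest young one. Mean Il1b was 0.606 CPM in old early-induced females and 0.253 CPM in males, against 0.175 and 0.151 CPM in young. In the old early-induced group 4 of 5 males lay below every female. Without the filter, edgeR's quasi-likelihood test did not call Il1b between male and female inputs (adjusted p = 0.537). Relative to summed library sizes, the old rates were 3.03 (95% exact interval 1.92 to 4.92, counting error only) and 3.26 (2.01 to 5.43) times the young rate. Without the filter, edgeR's quasi-likelihood test called Il1b in both comparisons, at log2 fold changes of 1.39 (adjusted p = 0.0295) and 1.48 (adjusted p = 0.0261). The 8 neutrophil markers summed to 6.77 to 9.16 CPM in young, 9.03 to 27.1 CPM in old early-induced and 8.3 to 14.3 CPM in old late-induced inputs. Of these markers 3 were tested, with 2 called higher with early and 1 with late induction. In young and old late-induced inputs 5 of the 8 were at a median of 3 counts or fewer, so few genes carry the sums. The part of these markers in the Il1b values was not tested.

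Tnf held 8 counts over the 10 young inputs, 6 of them in replicate 4, 18 over the 12 old early-induced and 14 over the 7 old late-induced inputs. The counting intervals of the old to young rate ratios, 0.791 to 5.08 and 0.947 to 6.65, both include 1, so a difference was not detectable at this depth.

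Il18, Nlrp3 and Il6ra were not called in either comparison. Il18 medians were 11.3 CPM in young (8.99 to 13.7), 11.4 in old early-induced (9.62 to 14.03) and 11.1 in old late-induced inputs (9.56 to 15.4), and the log2 fold changes were 0.03 ± 0.08 and -0.00 ± 0.09. Il6ra medians were 7.49 CPM (5.72 to 10.1), 7.38 (5.53 to 9.6) and 8.16 (6.35 to 8.7), with log2 fold changes of -0.06 ± 0.10 and 0.01 ± 0.11. Nlrp3 medians were 1.21 CPM (0.481 to 2.02), 1.43 (0.629 to 2.36) and 1.61 (0.48 to 2.44), with log2 fold changes of 0.18 ± 0.19 and 0.10 ± 0.21. Ranges of all 3 genes overlapped across groups. Set against the mean log2 CPM of the 12 microglia markers in the same library, Il6ra lay at -1.68 ± 0.25 (SD) in young inputs. It lay at -2.11 ± 0.23 in old inputs with early induction and at -2.17 ± 0.12 in those with late induction. In the same order, Il18 lay at -1.12 ± 0.16, -1.46 ± 0.14 and -1.64 ± 0.21. Nlrp3 lay at -4.26 ± 0.50, -4.41 ± 0.43 and -4.56 ± 0.64, and Il10ra at -2.20 ± 0.25, -2.13 ± 0.37 and -2.02 ± 0.28. These differences are given as a description, with no test.

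**Figure D3:**
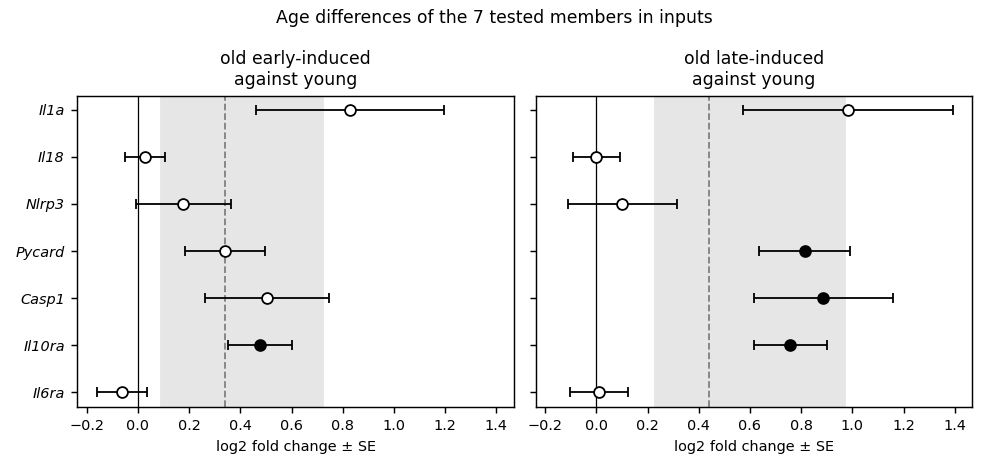
Log2 fold change ± SE of the 7 tested members in old early-induced (left) and old late-induced (right) against the same young inputs; filled points were called. The dashed line and grey band give the median and range of the 12 microglia markers, 0.34 (left) and 0.44 (right) at the median, and Il18, Nlrp3 and Il6ra lie nearest 0.

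A score of the microglia markers did not overlap between young (at most 4.74 log2 CPM) and old inputs (at least 4.85). With that score as a covariate, 0 members were called in either age comparison, and calls over all genes went from 3826 to 17 and from 5151 to 0. The standard error of Il10ra in old late-induced against young inputs went from 0.14 to 0.35 in that fit. Age and the marker score therefore cannot be told apart here.

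Between old late-induced and old early-induced inputs 0 of the 7 tested members were called by edgeR's quasi-likelihood test or limma voom, and DESeq2 gave no adjusted p for any of them. Over all genes edgeR called 0.0334% (5 of 14948, with 1736 at an unadjusted p under 0.05). That count of 5 was 164 without old early-induced replicate 5, 76 without replicate 2 and 29 without replicate 10, 0 without old late-induced replicate 2, 3 or 4, and 2 to 8 without any other input. At an unadjusted p under 0.05 there were 2 members, Pycard (0.47 ± 0.17, adjusted p = 0.257) and Il10ra (0.28 ± 0.13, adjusted p = 0.413). Casp1 lay at 0.38 ± 0.25 (adjusted p = 0.57), and the other tested members at -0.08 to 0.15. The order of median CPM was TRAP, old late-induced, old early-induced and young input for Il1a, Il1b, Tnf, Nlrp3, Pycard, Casp1 and Il10ra, and neighbouring old inputs were not called apart for any that was tested. Of the tested genes, old early-induced and young inputs were called apart for Il10ra alone.

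Among the other genes of the pathway, the chemokine and TNF lists had the most higher calls in both old groups. Of 7 tested chemokine genes 5 rose in each comparison, among them Ccl6 (1.08 ± 0.20 and 1.04 ± 0.22) and Cxcl16 (0.82 ± 0.19 and 1.18 ± 0.22), and 0 fell. Of 12 tested TNF pathway genes 5 rose in each and 0 fell, with the receptors Tnfrsf1b (0.60 ± 0.13 and 0.86 ± 0.14) and Tnfrsf1a (0.47 ± 0.12 and 0.76 ± 0.13). Of 11 tested inflammasome genes 3 rose with early and 4 with late induction, Naip5 by 0.93 ± 0.21 and 0.62 ± 0.24 and Casp8, a caspase of cell death, by 0.62 ± 0.16 in the latter. The count of 4 was 2 without old late-induced replicate 1 or 5 or young replicate 8, and the count of 3 was 5 without young replicate 5 or old early-induced replicate 11 or 12. Of 12 tested genes of the IL-1 and IL-18 pathways 2 rose and 4 fell in old early-induced inputs, and 2 rose and 2 fell in old late-induced inputs. There Il33 rose (0.44 ± 0.08 and 0.64 ± 0.09) and the signalling receptor Il1r1 fell (-0.41 ± 0.08 and -0.34 ± 0.10). The NF-kB list gave 2 higher and 2 lower calls of 15 and then 4 and 4, and the IL-6 and IL-10 list 0 of 10 and then 2 higher, among them the feedback inhibitor Socs3 (0.90 ± 0.24), and 2 lower. Over all genes 25.6% and 34.5% were called, 13% and 17% higher. The NF-kB count with early induction (4 of 15) lies near 25.6%. With late induction, the counts for IL-1 and IL-18 (4 of 12) and for IL-6 and IL-10 (4 of 10) lie near 34.5%. The inflammasome counts (3 and 4 of 11) and the late-induced TNF count (5 of 12) were all higher calls. They lie near the shares called in either direction but above the 13% and 17% called higher, on few genes and with no test. None of these listed genes was called between the old groups, between the sexes or in the interaction of age and sex.

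Nlrp3 was lower in males. Of the 7 tested members it was the 1 called between male and female inputs, where 0.174% of all genes were called (26 of 14948) and 0.127% called lower in males. Without old late-induced replicate 2 the count of 26 was 17, and it was 19 to 32 without any other input. Young females held 2.02, 0.934, 1.38, 1.79 and 1.37 CPM and young males 1.19, 0.891, 0.990, 0.481 and 1.23 CPM. Old early-induced females ran from 1.26 through 1.7 to 2.36 CPM, and males held 0.629, 0.790, 1.19, 1.22 and 1.33 CPM. Old late-induced females held 1.3, 1.72, 1.61, 2.44 and 1.68 CPM and the 2 males 0.48 and 1.24 CPM. All 12 male inputs lay below the median of the 17 female inputs (1.68 CPM), and 14 of 17 females lay above every male. The difference, male minus female, was -0.77 ± 0.17 (adjusted p = 0.0429 by edgeR's quasi-likelihood test).

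The Nlrp3 call rested on few counts, 8 to 41 per input, and on a margin close to the threshold. It was kept in 8 of 29 fits that each left out 1 input and lost in 21, with differences of -0.83 to -0.68 and adjusted p-values of 0.0189 (without young replicate 6) to 0.119 (without old late-induced replicate 1). In the early-induced groups alone the difference was -0.71 (adjusted p = 0.3). TRAP libraries, a comparison added after the data were seen, held 19.4 to 32.7 CPM in 5 females and 17.2 and 12.8 CPM in the 2 males of the same animals. All females lay above both males there (-0.66 ± 0.20, adjusted p = 0.236), with 0 members called. This was not particular to Nlrp3, as Il1a, Tnf and Il6ra were separated by sex in TRAP in the same way. Ratios of male to female mean CPM in TRAP ran from 0.07 (Tnf) to 0.86 (Il10ra) over the members. The microglia marker score was also lower in TRAP of males (9.06 to 9.07 log2 CPM) than of females (9.14 to 9.64). The microglia markers lay at -0.00 to -0.30 in males against females in input (median -0.07, 0 of 12 called). With the marker score as a covariate Nlrp3 was not called between the sexes. Its difference lay at -0.81 to -0.71 over 10 alternative fits of the inputs, the fit with that score among them. The cause of the difference was not tested. Il1a was next in size at -0.66 ± 0.32 (adjusted p = 0.457), and the other tested members lay at -0.07 to 0.18.

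**Figure D4:**
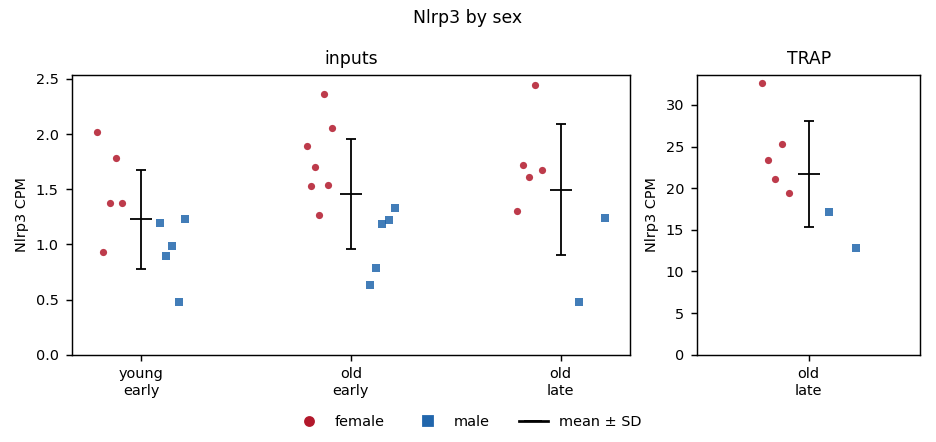
Nlrp3 CPM in every library by group, inputs on the left and old late-induced TRAP on the right with its own axis (red circles, females; blue squares, males; black bars, mean ± SD of the group). Males lie at 1.33 CPM or below in all input groups, and in TRAP both males lie below all 5 females.

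The interaction of age and sex in early-induced inputs gave 0 called members, with 0 at an unadjusted p under 0.05 and 0 by DESeq2 or limma voom, where 0% of all genes were called by edgeR (2301 of 14953 at an unadjusted p under 0.05). That count was 453 without old early-induced replicate 6, with 0 members called, and 0 without any other input. Differences of differences ranged from -0.33 ± 0.77 (Il1a) to 0.08 ± 0.25 (Il10ra).

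Over all 36 libraries, the gene whose centred log2 CPM lay closest to Il10ra, among 15154 genes, was Cx3cr1, whose promoter drives cre, at a mean absolute difference of 0.20. Pycard lay closest to Unc93b1 (0.21) and Ctsh (0.22), Il6ra to Plcg2 (0.16) and Cyth4 (0.17), and Nlrp3 to Abca9 (0.31) and Blnk (0.31). Casp1 lay closest to Esyt1 (0.38) and Il17ra (0.40), and Il18 to Slc30a1 (0.11) and Metap2 (0.11). The 36 libraries include the 7 TRAP libraries, so the distances also cover the step from input to TRAP. Il1a, Il1b and Tnf had means under 10 counts in inputs and were left out of it.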

How the data were processed

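PolyA RNA of hippocampus was sequenced from 29 inputs and 7 TRAP libraries. The authors deposited estimated counts per gene, marked raw per the file headers, and 77.2% of nonzero values were not whole (tolerance 1e-06). Aligner, counter and strand handling are not given in the sources used here. The submitters' processing notes name mm10 and DESeq2, with no role given. The source of the fractional counts is not given. They can arise where reads are shared out among features, which would leave related or overlapping genes uncertain.

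Estimated counts were rounded and tested with edgeR 4.0.16 in R 4.3.3 (filterByExpr with a minimum count of 10, TMM, glmQLFit, glmQLFTest), with adjustment over all genes tested. TRAP against input was fitted on 14 libraries with sex, the age, induction and sex contrasts on all 29 inputs with group and sex, and the interaction on 22 early-induced inputs. Standard errors came from the quasi-likelihood F statistic. CPM used TMM library sizes over all 36 libraries, and log2 CPM a prior count of 2. Alternatives were other scalings, filters, tools (DESeq2 1.42.0, limma 3.58.1), covariates and sample sets, and each library left out in turn. The contrast of TRAP with input, that of old early-induced with young inputs and the interaction were run on simulated data with known changes. The other contrasts were not. Simulated libraries were drawn independently, with no animal effect. Exact intervals of pooled counts (scipy 1.17.1) cover counting error only, as PCR copies could not be removed.

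The 2 libraries of each old late-induced animal were paired through its number in the labels. Deviations from group means correlated at 0.289 to 0.44 within the 7 animals, against a median of -0.09 between different animals. Of 193 listed genes 192 were matched, 3 of them by identifier. Members and lists were chosen with earlier results of these data known. Named genes were the members, up to 2 called genes per list, comparison and direction with the largest changes (average log2 CPM over 0), Cx3cr1, and the 2 genes nearest each member. A further gene with a pattern near that of Il10ra is not reported here.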

Additional observations from a re-analysis of the deposited data

Results flagged for a closer look

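In 3 of 27 sets of inputs or TRAP libraries of a member within a group, 1 library stood apart from the rest by Dixon's ratio of its gap to the whole range, where chance gives about 1.35. The group of 12 old early-induced inputs was too large for the critical values used and was not screened. Casp1 was lowest in old late-induced input of female replicate 5, at 1.15 CPM (20 counts) against 3.24 CPM in the next library, a ratio of 0.7238. Casp1 was also lowest in young female replicate 6, at 0.234 CPM (4 counts) against 1.31 CPM in the next, a ratio of 0.6179. Tnf was highest in young male replicate 4, at 0.361 CPM (6 counts) against 0.119 CPM in the next, a ratio of 0.508. The TRAP library of the animal with the low old late-induced Casp1 input held 19.7 CPM, within the range of the other 6.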

How the results depend on the processing

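Calls of members in TRAP against input were 7 under the alternatives run, except 6 with a minimum of 20 counts, where Il1b was not tested, and 8 with no filter on low counts, where Tnf was added. With the animal as a replicate block in place of sex the same 7 were called, Pycard at 4.04 and Il18 at 0.17 (adjusted p = 0.155). Members called with age were 0 in females only, 0 with the microglia score and 2 without the filter for early induction, and for late induction (3) 0 with the score, 2 in females only (without Casp1), 4 without the filter (with Il1b) and 4 with no sex term (with Il1a). DESeq2 gave no adjusted p for members between old groups, so no count is given. Members called between the sexes were 0 in early-induced groups only, 0 with the score, 0 without the filter, 0 in TRAP libraries only (added after seeing the data) and 0 to 1 with each library left out.

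With the score, signs reversed against young for old early-induced Ccl6 (-0.066), Il10ra (-0.012), Il18 (-0.28) and Il1a (-0.17), and for old late-induced Ccl6 (-0.57), Il1a (-0.44), Il6ra (-0.27), Nfkb2 (-0.20), Socs3 (-0.11) and Stat3 (-0.050). Between old groups it reversed Il1a (-0.28) and Il6ra (-0.0064), and between the sexes Il18 (0.070). Il18 in old late-induced against young inputs, at -0.00, turned positive with DESeq2 (0.0036), its size factors (0.0024), females only (0.046), library size alone (0.0082), a minimum of 20 counts (0.0024), no sex term (0.0065), the 2 groups alone (0.0026) and upper quartile scaling (0.024). Nlrp3 between old groups reversed with no sex term (0.027), Casp1 between the sexes with voom (0.11), and Il10ra (-0.18) and Pycard (-0.53) between the sexes in TRAP libraries only. The cause was not tested.

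With each library left out, values that crossed 0 ranged as follows. Against young they were -0.015 to 0.063 for Il18 with early induction, and -0.085 to 0.032 for Il18, -0.032 to 0.059 for Il6ra and -0.013 to 0.22 for Nlrp3 with late induction. Between old groups they were -0.11 to 0.012 for Il18 and -0.19 to 0.042 for Nlrp3, and between the sexes -0.15 to 0.013 for Casp1. In the interaction they were -1.04 to 0.013 for Il1a, -0.15 to 0.011 for Il18, -0.34 to 0.19 for Casp1, -0.29 to 0.020 for Nlrp3, -0.015 to 0.20 for Il10ra and -0.25 to 0.0019 for Il6ra.

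Over all genes, females only gave 1198 and 2787 calls with age (3826 and 5151 in both sexes) and 182 between old groups (5). DESeq2 gave 58 between old groups, 64 between the sexes (26) and 13 in the interaction (0). The 2 old groups alone gave 0, early-induced groups 12 and TRAP libraries 9 between the sexes. Low counts of Il1a, Il1b and Tnf in inputs limit the precision of their values.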
